A study of Mus musculus with 48 samples.

Results

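The aquaporin-4 endfoot complex was followed through 8 genes: Aqp4, Dag1, Dmd, Dtna, Mlc1, Hepacam, Clcn2 and Agrn. They were taken by gene symbol, not by measured value, and all 8 were found among the 24421 symbols of each of the 6 deposited tables. The tables hold 48 bulk RNA-seq libraries of mouse astrocytes in 15 groups, from cortex, hippocampus and olfactory bulb. In 1 table per region, astrocytes of postnatal days 1, 7 and 14 (P1, P7 and P14) were sampled in 3 libraries per age, and in 4 for cortex P14, and their labels state neither genotype nor treatment. In the other 3 tables, P28 astrocytes labelled Gabbr1 control were set beside those labelled Gabbr1 cKO. Gabbr1 encodes a subunit of the metabotropic GABA receptor. These held 4 control and 4 cKO libraries of cortex, 2 and 4 of hippocampus, and 3 and 3 of olfactory bulb. Tamoxifen is stated for both genotypes in every hippocampal and olfactory bulb library at P28 and in 3 of the cortical ones (control replicates 3 and 4 and cKO replicate 4), and is not mentioned for the other 5 cortical libraries. Libraries of P1, P7 and P14 carry separate runs of library numbers in each region, so age and library series cannot be told apart. The labels name no strain, no Cre driver, no sort and no pooling of animals. Nothing in them says that replicates came from separate animals, so p-values measure the spread between these libraries, which may be technical.

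Astrocytes wrap brain capillaries and the pial surface with flattened processes called endfeet. There, the water channel aquaporin-4 is clustered in the membrane that faces the basal lamina. It is held by a chain that runs from laminin and agrin outside the cell, through dystroglycan in the membrane, to dystrophin and alpha-dystrobrevin inside. A neighbouring complex of MLC1, the adhesion molecule GlialCAM and the chloride channel ClC-2 sits at contacts between endfeet and takes part in the regulation of cell volume. Mutations in MLC1 or GlialCAM cause a leukodystrophy with vacuoles in the white matter.

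The start regions of 3 members are shown because these members differ in course: Dag1 rose with age, Agrn fell in 2 of 3 regions, and Dmd is counted over more than 1 start site. Each run is the 250 bases before a start annotated by RefSeq on GRCm38.p6, 5′ to 3′ on the gene's strand. Capitals mark the short recognition motif of nuclear factor I (TTGGC, or GCCAA on the other strand). Dag1, which encodes dystroglycan, starts on the minus strand, and its window is chr9:108263959-108264208. Agrn, which encodes agrin, starts on the minus strand, with the window chr4:156197489-156197738. For Dmd, which encodes dystrophin, windows are shown for 2 starts on the plus strand, chrX:82948620-82948869 (start 1) and chrX:85048045-85048294 (start 2).
Dag1: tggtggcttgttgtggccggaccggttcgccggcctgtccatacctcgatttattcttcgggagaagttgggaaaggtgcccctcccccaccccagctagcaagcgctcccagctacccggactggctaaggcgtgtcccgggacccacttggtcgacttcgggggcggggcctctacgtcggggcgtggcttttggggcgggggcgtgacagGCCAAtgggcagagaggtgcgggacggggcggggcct
Agrn: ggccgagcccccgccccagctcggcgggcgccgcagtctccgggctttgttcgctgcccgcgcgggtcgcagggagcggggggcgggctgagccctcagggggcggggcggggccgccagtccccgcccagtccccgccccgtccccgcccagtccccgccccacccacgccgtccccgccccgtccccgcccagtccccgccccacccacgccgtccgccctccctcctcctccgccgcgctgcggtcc
Dmd start 1: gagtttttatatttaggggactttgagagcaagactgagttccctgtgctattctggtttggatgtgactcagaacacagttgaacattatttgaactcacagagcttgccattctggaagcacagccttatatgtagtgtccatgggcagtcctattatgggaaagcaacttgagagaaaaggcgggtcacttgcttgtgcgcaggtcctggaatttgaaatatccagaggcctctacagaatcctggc
Dmd start 2: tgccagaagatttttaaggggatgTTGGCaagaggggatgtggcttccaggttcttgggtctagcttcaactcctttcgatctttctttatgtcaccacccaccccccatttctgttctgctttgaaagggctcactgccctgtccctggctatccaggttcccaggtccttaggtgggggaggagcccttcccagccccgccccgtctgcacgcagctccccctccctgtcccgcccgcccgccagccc
The Agrn window had a GC content of 83.6%, the Dag1 window 67.6%, and the Dmd windows 45.2% and 60%, beside a median of 52.4% over 32851 such windows. This motif was found once in the Dag1 window and once before Dmd start 2, and 41.5% of all windows hold 1 or more. Neither the full palindrome of that factor (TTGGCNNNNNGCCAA, whose arms are that motif, in 0.0365% of windows) nor the SOX core (ACAAT or ATTGT, in 27.7%) was found in these 4 windows. The E-box CANNTG, a palindrome found in 66.2% of windows, occurred once for Dag1, 2 times before Dmd start 1, and not at all for Agrn. Both strands were searched, and a match is a run of letters, not a binding site. The deposited counts are per gene, so reads from the Dmd starts cannot be told apart.

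Olfactory bulb library depth was 5473837 to 9062118 reads at P1, 3965254 to 5095842 at P7 and 1773226 to 2669394 at P14, without overlap. Cortex P1 (14070691 to 14513455) lay above P7 (4828515 to 7850503), and hippocampus P1 (5098757 to 8986015) above P14 (2539583 to 4248087). At P28 olfactory bulb controls (1859933 to 3700620) lay below cKO (4070375 to 5285132), while genotypes of other regions overlapped. The part of depth in the differences below was not tested. Over all groups, depth ranged from 1773226 to 15008466 reads in genes. Ribosomal precursor Rn45s took 13.7% to 38.0% of them in 46 libraries, 0.594% in cKO replicate 2 of hippocampus at P28 and 0.476% in control replicate 2 of olfactory bulb at P28, so the genotype differences that use these 2 are given with and without them. The deleted gene was checked first. Gabbr1 was lower in all 11 cKO libraries than in every control of its region, with a log2 difference of -3.45 in cortex (adjusted p = 4.4e-05), -1.84 in hippocampus (adjusted p = 0.936) and -1.48 in the olfactory bulb (adjusted p = 0.877, limma). Without the 2 libraries of low Rn45s it was -2.10 in hippocampus and -1.62 in the olfactory bulb. Of 12 astrocyte markers, 11 rose from P1 to P14 in cortex and 12 in each other region, and none was at 0 in any group. Their summed normalized count was 22803 to 29845.5 at P1 and 517948 to 573931 at P14 in cortex. In hippocampus it was 14043.5 to 16553.5 and 432323 to 466356, and in the olfactory bulb 5734 to 7917 and 133072 to 146882. Neuron markers went the other way. Their summed normalized count was 10949.5 to 14766 at P1 and 1803 to 2114 at P14 in cortex, 9265 to 11103 and 2356 to 2548 in hippocampus, and 19066 to 23149.5 and 4820.1 to 5854 in the olfactory bulb. Of the 12, none of which was at 0 in a whole group, 11 were lower at P14 in cortex, 11 in hippocampus and 10 in the olfactory bulb, where 1 was higher. Sums of mature oligodendrocyte and microglia markers were higher at P14 in each region. The 8 oligodendrocyte markers summed to 336 to 394 at P1 and 15297 to 26088 at P14 in cortex, to 76.9 to 93.6 and 1603 to 2312 in hippocampus, and to 103 to 201 and 1933 to 2242 in the olfactory bulb. Of those tested, 6 of 7 were higher in cortex and 4 of 4 in each other region. Opalin was at 0 at P1 in each region, with Mobp in hippocampus and Mag in the olfactory bulb, and at P14 Mog and Opalin were at 0 in hippocampus and Mag and Opalin in the olfactory bulb. The 8 microglia markers, none of which was at 0 in a whole group, summed to 361 to 570.0 and 1259 to 2771 in cortex (8 of 8 higher), to 93.6 to 138 and 226 to 616 in hippocampus (3 of 5), and to 44.1 to 57.7 and 274 to 460.4 in the olfactory bulb (4 of 5). The part of these markers in the age differences below was not tested. In bulk samples, fewer cells of a type and less RNA per cell cannot be told apart. Ddx3y, a Y-linked gene, was at 0 in cortex P1, 0 to 0.577 in cortex P7 and 0 to 340 in cortex P14. At P28 it was 643 to 969 in hippocampal controls and 0 to 807 in hippocampal cKO. It was 413 to 466 and 0 to 451 in the olfactory bulb, and 0 to 482 and 0 to 388 in cortex. The part of sex in the differences below was examined only by an alternative fit with Ddx3y as a covariate.

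Aqp4 (chr18:15389496-15410982 on mm10, with places of all members from GENCODE) encodes the water channel itself and was, in the deposited scaling, the member that rose most from P1 to P14 in each region. Values are normalized read counts, meaning reads divided by 1 factor per library. In cortex, Aqp4 stood at 1295, 1847 and 2045 at P1, 11332, 11125 and 9715 at P7 and 9037, 9085, 8809 and 9473 at P14. All P7 and P14 libraries lay above all P1 libraries, and P7 lay above P14. In hippocampus the values were 654, 697 and 629 at P1, 6668, 7922 and 8779 at P7 and 15722, 14962 and 15949.8 at P14. Each age stood apart from the next, in rising order. In olfactory bulb they were 105, 132 and 146, then 1529, 2359.7 and 808, then 17905, 16693 and 14768. Here too the ages rose in order without overlap. The tables were normalized separately, so levels in different regions were not compared by a test.

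The ratio of P14 to P1 means was 5.26 in cortex, 23.6 in hippocampus and 129 in the olfactory bulb. On the log2(value + 1) scale used for all tests, which understates changes of low genes, these were rises of 2.42 ± 0.13 (SE), 4.56 ± 0.11 (SE) and 7.0 ± 0.30 (SE). The adjusted p-values over all genes tested were 3.2e-09, 8.91e-10 and 4.22e-08 (limma). In cortex the lead of Aqp4 over Mlc1 (2.26) was not tested. Its lowest cortical rise over the alternative settings was 1.78, below the lowest of Mlc1, 2.03. All genes tested had a median change of -0.27, -0.29 and -0.24 in the deposited scaling and of -0.02, -0.07 and -0.04 under DESeq2's, so each change can be read against that shift. The step from P7 to P14 differed in sign among regions: 3.52 in the olfactory bulb (adjusted p = 9.51e-06), 1.01 in hippocampus (0.000104) and -0.23 in cortex, which did not pass (0.148) and lay near the median of all genes in that step, -0.19. Under quantile normalization the hippocampal step turned to -0.0833 and the cortical one passed at -0.86 (adjusted p = 0.000121). The cortical step also passed when P7 and P14 were fitted alone (adjusted p = 0.0258).

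**Figure D1:**
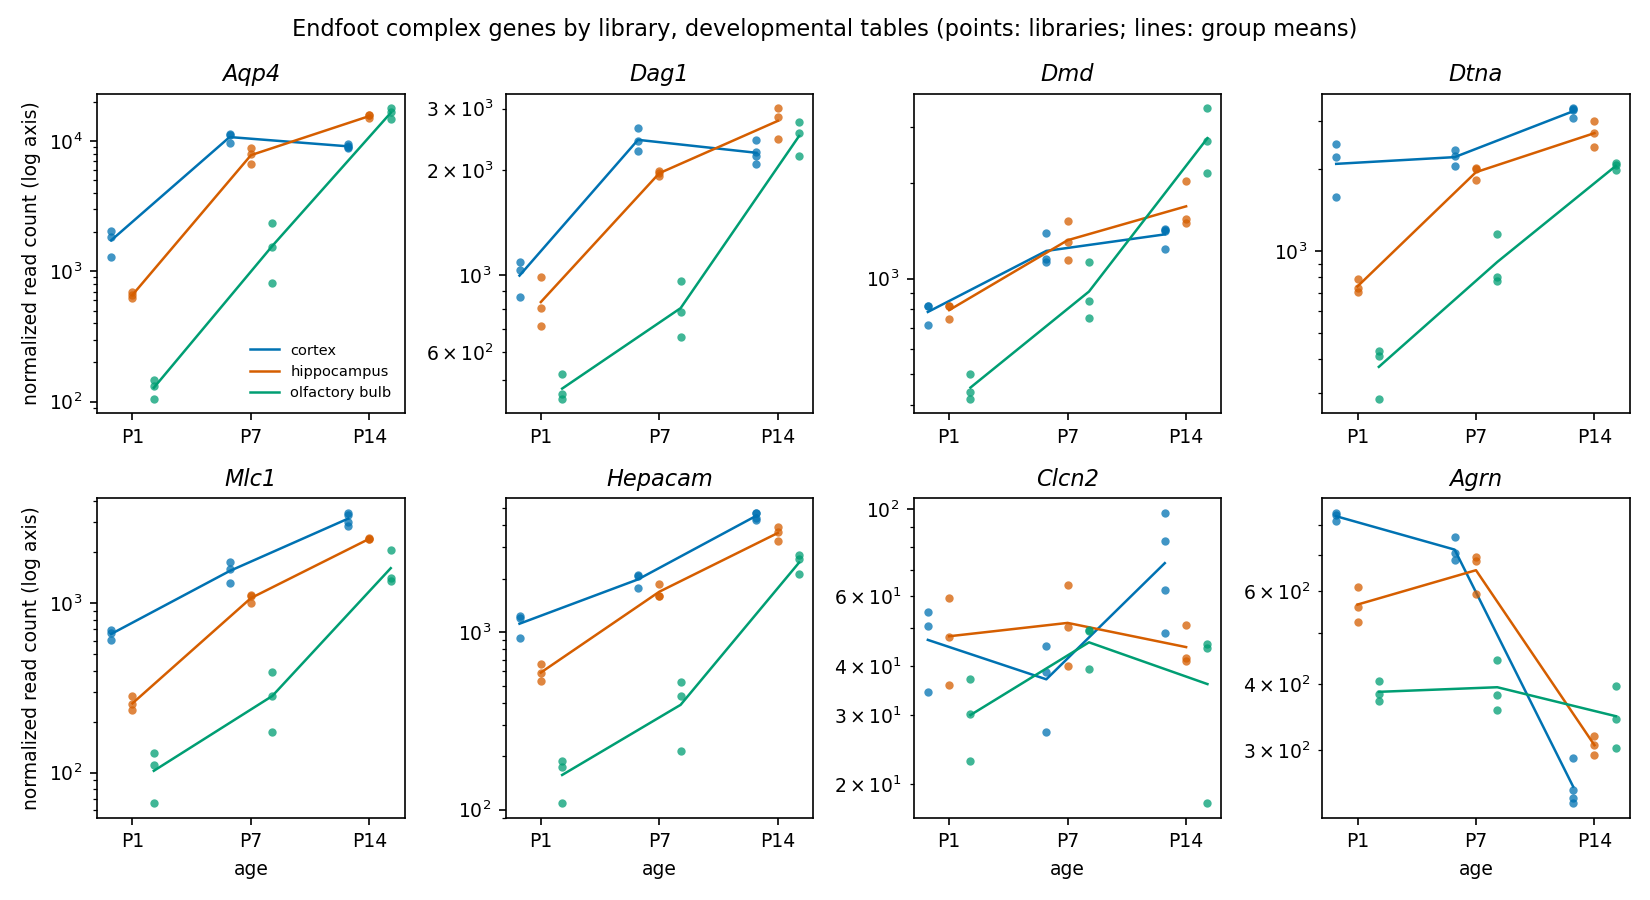
Normalized read count (log axis) against age for the 8 genes, with 1 point per library and lines through the group means, in cortex, hippocampus and olfactory bulb. Aqp4 is higher at P14 than at P1 in all 3 regions and ends at 14768 to 17905 in olfactory bulb P14. In cortex its P14 libraries lie below those of P7. Agrn falls from P1 to P14 in cortex and hippocampus, and Clcn2 stays under 100 throughout.

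Dystroglycan, from Dag1 (chr9:108204634-108263958), is the membrane receptor that binds laminin and agrin outside and dystrophin inside. In cortex, Dag1 measured 863, 1092 and 1033 at P1, 2422, 2634 and 2270.4 at P7 and 2248, 2077, 2201 and 2442 at P14. Libraries of P7 and P14 overlapped, and both ages lay above P1. In hippocampus, it measured 805, 988 and 715, then 1959, 1924 and 1994, then 2833, 2457 and 3013, with no overlap between ages. Olfactory bulb libraries gave 441, 519 and 456, then 783, 964 and 662, then 2560.1, 2753 and 2202, again without overlap. From P1 to P14, Dag1 rose by 1.17 ± 0.10 (SE) in cortex, 1.73 ± 0.13 (SE) in hippocampus and 2.40 ± 0.15 (SE) in the olfactory bulb on the log2 scale (adjusted p = 1.94e-07, 9.07e-07 and 5.26e-07, limma). As for Aqp4, the cortical P14 level had been reached by P7, and the P7 to P14 step was -0.12 (adjusted p = 0.308). The hippocampal step from P7 to P14, 0.49 with an adjusted p of 0.0161, was no longer past the threshold without P7 replicate 1 (0.0534) or P7 replicate 2 (0.0603), and under quantile normalization it was -0.0658.

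Dystrophin, from the X-linked Dmd (chrX:82948870-85206141), links dystroglycan to the cytoskeleton. It rose from P1 to P14 in all 3 regions, most in the olfactory bulb. Cortical values were 715, 819 and 823 at P1, 1151, 1128 and 1386 at P7 and 1427, 1415, 1422 and 1242 at P14. Hippocampal values were 749, 817 and 821, 1142, 1299 and 1518 and 2026, 1536 and 1498 at the same ages. In both regions P7 and P14 overlapped and lay above P1. Olfactory bulb, with 441, 503 and 419 at P1, 749.7, 1128 and 853 at P7 and 3435, 2141 and 2710.1 at P14, separated all 3 ages. From P1 to P14 the log2 change was 0.81 ± 0.10 (SE) in cortex, 1.07 ± 0.15 (SE) in hippocampus and 2.58 ± 0.19 (SE) in the olfactory bulb (adjusted p = 6.87e-06, 9.89e-05 and 1.37e-06, limma). The step from P7 to P14 passed in the olfactory bulb (1.60, adjusted p = 7.57e-05) and not in cortex (0.18, 0.147) or hippocampus (0.35, 0.0931). In cortex that step passed without P7 replicate 3 (0.0392), under trimmed mean scaling (TMM, 0.00658) and in edgeR and DESeq2, and in hippocampus in DESeq2 (0.0345).

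Alpha-dystrobrevin, from Dtna (chr18:23415135-23659715), binds dystrophin. Cortical Dtna was already high at P1, with 1584, 2226 and 2475, and measured 2238, 2355 and 2061 at P7 and 3349, 3077, 3300.5 and 3362 at P14. Its P1 and P7 libraries overlapped, and P14 stood above both. In hippocampus it went from 729, 709 and 788 to 1829.6, 2021 and 2009 and then 2715, 2423 and 3017, with no overlap. The olfactory bulb gave 286, 429 and 409.8, then 805, 1156 and 777, then 1988, 2112 and 2077, with no overlap either. Dtna rose from P1 to P14 by 0.67 ± 0.12 (SE), 1.87 ± 0.11 (SE) and 2.47 ± 0.19 (SE) in cortex, hippocampus and olfactory bulb (adjusted p = 0.000349, 1.63e-07 and 1.47e-06, limma). In cortex the P1 to P7 step was 0.11 (adjusted p = 0.576) and the P7 to P14 step 0.56 (0.00214), so the cortical rise came after that of Aqp4 and Dag1 in these values. Quantile normalization took the cortical change from P1 to P14 to 0.30 (adjusted p = 0.0514), the P7 to P14 step to 0.18 (0.255) and the hippocampal P7 to P14 step to -0.0982.

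Mlc1 (chr15:88955884-88979007) encodes a membrane protein of endfoot contacts, and Hepacam (chr9:37367351-37386575) encodes GlialCAM, which brings MLC1 and ClC-2 to those contacts. Both rose at each step in each region. Cortical Mlc1 measured 609, 696 and 669 at P1, 1593, 1747 and 1308 at P7 and 3425, 3026, 2860.3 and 3315 at P14. In hippocampus it measured 254, 283 and 233, then 1099, 998 and 1121, then 2405, 2423 and 2377. In olfactory bulb it measured 66.0, 130.3 and 111, then 283, 394 and 173, then 2071, 1400.4 and 1359. No ages overlapped in any region.

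Hepacam in cortex stood at 921, 1199 and 1224 at P1, 2068, 2096 and 1776 at P7 and 4699.9, 4301, 4385 and 4707 at P14. Hippocampal libraries gave 586, 658 and 531, then 1601, 1593 and 1869.6, then 3919, 3271 and 3653. Olfactory bulb libraries gave 109, 187 and 175, then 434, 520.4 and 214, then 2111, 2573 and 2706. As with Mlc1, no ages overlapped. Mlc1 rose by 2.26 ± 0.11 (SE) in cortex, 3.23 ± 0.12 (SE) in hippocampus and 3.99 ± 0.32 (SE) in the olfactory bulb from P1 to P14 (adjusted p = 9.48e-10, 2.8e-09 and 2.25e-06, limma). Hepacam rose by 2.03 ± 0.10 (SE), 2.61 ± 0.12 (SE) and 4.0 ± 0.31 (SE) (adjusted p = 2.44e-09, 2.3e-08 and 1.65e-06). In olfactory bulb the P1 to P7 steps of 1.44 for Mlc1 and 1.25 for Hepacam passed with adjusted p = 0.0165 and 0.025. Both lost the call without P1 replicate 1, P7 replicate 1 or P7 replicate 2, and Hepacam and Dag1 also without P1 replicate 3. Dag1 lost it without P1 replicate 1 and P7 replicate 2 as well. Without P1 replicate 1, or without P7 replicate 2, 3 of the 6 members called in that step were still called.

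Clcn2 (chr16:20702964-20717746), the gene of the chloride channel ClC-2, was the lowest of the 8 and did not follow Mlc1 and Hepacam in hippocampus or the olfactory bulb. Its cortical values were 50.6, 54.7 and 34.4 at P1, 45.0, 38.7 and 27.2 at P7 and 98.0, 48.4, 82.9 and 62.3 at P14. P1 overlapped with both other ages, and P14 lay above P7. Hippocampal values, 47.4, 35.6 and 59.6 at P1, 64.0, 40.0 and 50.1 at P7 and 41.9, 50.7 and 41.2 at P14, overlapped throughout. Olfactory bulb values were 30.1, 22.9 and 37.0, then 49.2, 49.3 and 39.2, then 17.9, 45.5 and 44.4. There, P7 lay above P1 while P14 overlapped with both. From P1 to P14 the change was 0.61 in cortex (95% interval 0.02 to 1.2, adjusted p = 0.0643), -0.07 in hippocampus (-0.80 to 0.67) and 0.17 in the olfactory bulb (-0.70 to 1.04). The cortical change passed in edgeR (0.88, adjusted p = 0.0136), in DESeq2, under TMM or quantile scaling, and without P14 replicate 2 (0.0203). The step from P7 to P14 passed in cortex (0.94, adjusted p = 0.0118, limma) but not without P7 replicate 3 (0.0638).

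Agrin, from Agrn (chr4:156165290-156197488), is a heparan sulfate proteoglycan of the basal lamina that binds dystroglycan. Agrn fell in cortex and hippocampus while its receptor gene Dag1 rose. Cortical values were 844, 834 and 813 at P1, 759.9, 708 and 686 at P7 and 244, 238, 289 and 252 at P14. Each age lay below the one before. Hippocampal values were 560.2, 610.3 and 525 at P1, 592, 695 and 682 at P7 and 293, 307 and 319 at P14. P1 and P7 overlapped, and P14 lay below both. In olfactory bulb the values of 371, 383 and 405, then 356, 445 and 381, then 302, 343 and 397 overlapped. From P1 to P14, Agrn fell to 0.308 of its P1 mean in cortex (log2 -1.70 ± 0.09 (SE), adjusted p = 3.72e-09) and to 0.542 in hippocampus (log2 -0.88 ± 0.13 (SE), adjusted p = 0.000175, limma). In olfactory bulb the change was -0.16, with a 95% interval of -0.49 to 0.17, near the median of all genes there (-0.24). The steps from P7 to P14 were -1.49 in cortex and -1.09 in hippocampus (adjusted p = 6.54e-08 and 0.000135), while those from P1 to P7, -0.21 and 0.21, did not pass (0.115 and 0.325).

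Counted together, 6 of the 8 genes were called higher and 1 lower from P1 to P14 in cortex, at an adjusted p under 0.05. In that comparison 64.4% of all genes tested were called, 24.0% higher and 40.3% lower. In hippocampus the count was 6 higher and 1 lower, with 49.5% of all genes called (21% higher, 28.5% lower), and in the olfactory bulb 6 higher and 0 lower, with 56.1% called (24.8% higher). The same 6 genes rose in all 3 regions: Aqp4, Dag1, Dmd, Dtna, Mlc1 and Hepacam. From P1 to P7, 5 were higher in cortex (15.6% of all genes higher), 6 in hippocampus (11.2%) and 6 in the olfactory bulb (7.59%). From P7 to P14 there were 4 higher and 1 lower in cortex (18.6% and 31.3% of all genes), 5 higher and 1 lower in hippocampus (12.5% and 17.7%), and 6 higher in the olfactory bulb (20.4%). The median log2 change of the 8 from P1 to P14 was 0.99 in cortex, 1.80 in hippocampus and 2.53 in the olfactory bulb, beside -0.27, -0.29 and -0.24 for all genes tested. For the 12 astrocyte markers it was 2.73, 3.40 and 4.81 in the same order. The split of all called genes depended on scaling and method, though TMM moved it little from P1 to P14 outside cortex. In cortex from P1 to P14 it was 2843 higher and 4765 lower as deposited and 3808 and 3619 under TMM. From P7 to P14 the split was 2197 and 3696 as deposited and 3038 and 2698 under TMM, and from P1 to P7 1850 and 2135 against 2166 and 1663. In hippocampus the P1 to P14 split was 2430 and 3302 as deposited, 2473 and 3217 under TMM, and 2896 and 2997 in DESeq2. In the olfactory bulb it was 2845 and 3604, 2858 and 3573, and 3435 and 3318 in the same order.

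**Figure D2:**
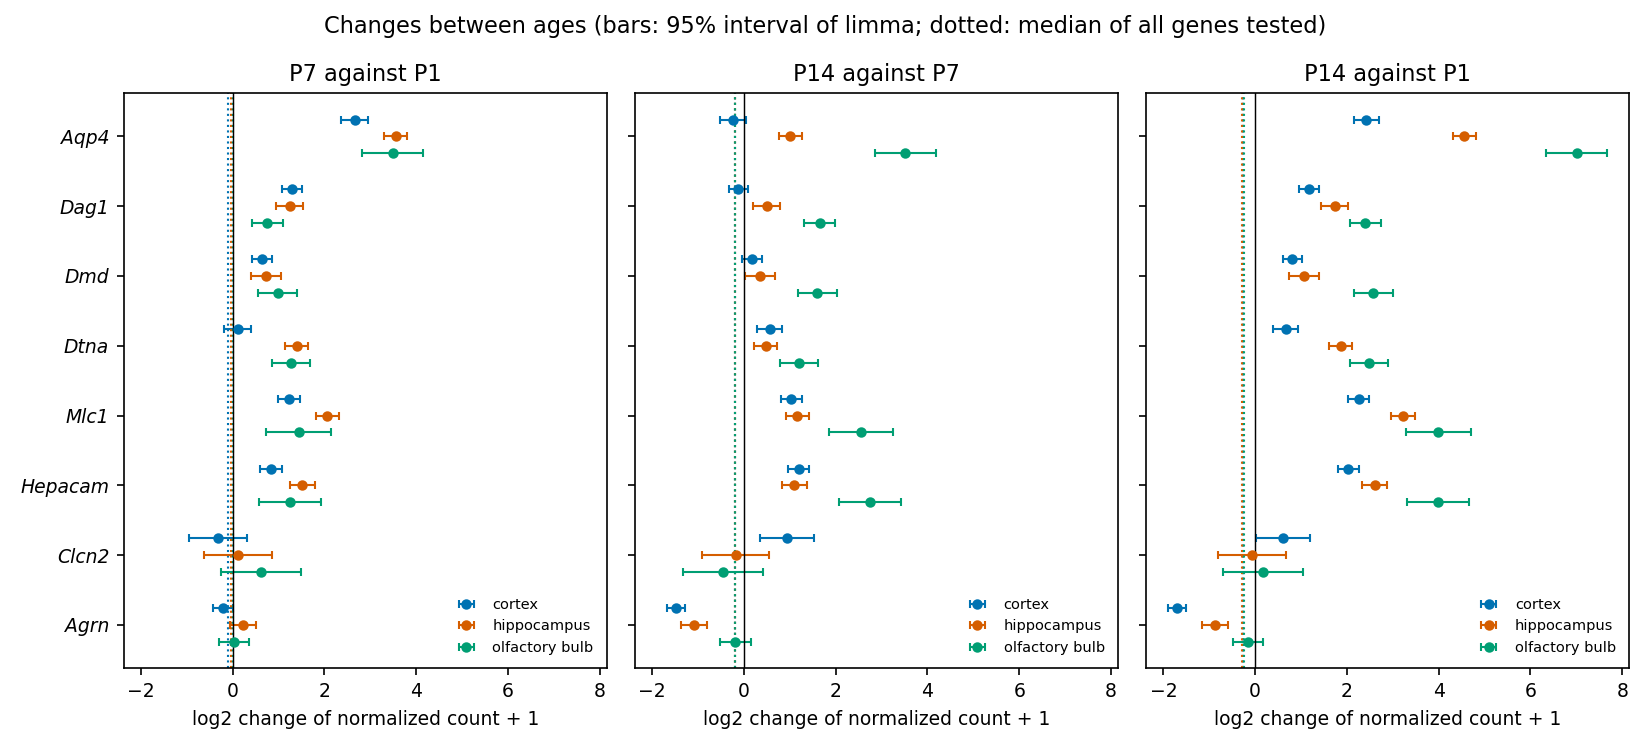
Log2 change of normalized count + 1 for each gene in the 3 age comparisons (panels) and 3 regions (colours), with 95% limma intervals as bars and the median of all genes tested as dotted lines. Aqp4, Dag1, Dmd, Dtna, Mlc1 and Hepacam lie to the right of 0 from P1 to P14, Agrn lies to the left in cortex and hippocampus, and the Clcn2 intervals there include or lie near 0.

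The 6 genes that rose did so at different ages in different regions. By P7, Aqp4 had made 110% of its P1 to P14 change (on the log2 scale) in cortex, 77.9% in hippocampus and 49.7% in the olfactory bulb. Dag1 had made 110%, 71.5% and 31.3% in the same order, and Dmd 78.2%, 67.4% and 38.1%. For Mlc1 these shares were 54.3%, 63.9% and 36.0%, and for Hepacam 41.2%, 57.9% and 31.3%. Dtna had the lowest share in cortex, 15.8%, with 74.7% in hippocampus and 51.7% in the olfactory bulb. Thus, in 5 of the 6 genes the bulb share was the lowest of the 3, the exception being Dtna. The shares describe tables that were normalized separately and were not compared by a test.

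Per kilobase of exon, the order of the 8 genes changed with age. Here a level is the mean normalized count divided by the length of all annotated exons joined. That length is 23801 bases for Dmd and 16930 for Dtna, against 2801 for Mlc1. It understates the level of a gene read mainly as short transcripts, so the order of the 8 depends on this divisor. Which transcripts were present was not tested. At P1 in cortex Hepacam led with 333 ± 50.4 (SD over libraries), followed by Aqp4 with 277 ± 62.3 and Mlc1 with 235 ± 15.9. The libraries of these 3 neighbours overlapped in that order. At P14 Aqp4 led with 1460.2 ± 44.2, ahead of Hepacam with 1351 ± 63.0 and Mlc1 with 1127 ± 92.7, and none of these overlapped with its neighbour. The order at P14 was the same in all 3 regions: Aqp4, Hepacam, Mlc1, Dag1, Dtna, Dmd, Agrn and Clcn2. In olfactory bulb P14 the neighbours Hepacam and Mlc1, and Dtna and Dmd, overlapped.

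In olfactory bulb at P1, Dag1 led with 74.2 ± 6.48 per kilobase and Aqp4, with 20.5 ± 3.32, was the 6th of the 8. By P14 Aqp4 stood at 2640.1 ± 254. Its rank among all genes by level per kilobase went from 4548 to 166 and 19 in the olfactory bulb, from 757 to 29 and 26 in hippocampus, and from 309 to 28 and 55 in cortex. Clcn2 was last in every developmental group, between 4.98 ± 1.17 in olfactory bulb P1 and 12.1 ± 3.64 in cortex P14. Agrn was above Dmd at P1 and P7 and below it at P14 in each region. Their libraries overlapped at P7 in hippocampus and olfactory bulb.

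**Figure D3:**
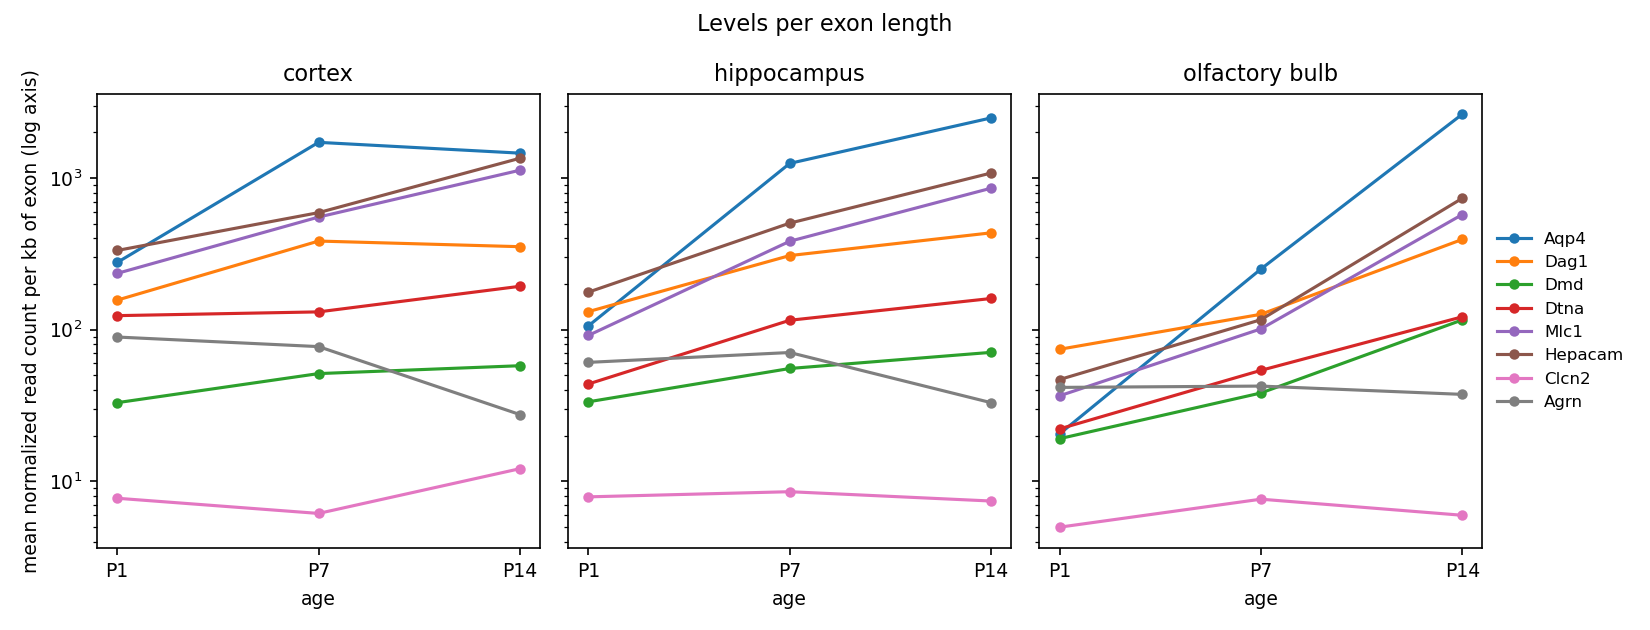
Mean normalized read count per kilobase of exon (log axis) against age, 1 line per gene and 1 panel per region. Aqp4 goes from 6th of the 8 at P1 to first at P14 in the olfactory bulb, and Agrn ends below Dmd in all 3 regions.

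Of 16 further partners of the dystrophin complex, 12 were tested in cortex, 11 in hippocampus and 12 in the olfactory bulb. From P1 to P14 in cortex, 5 were higher and 4 lower, against 7 and 0 in hippocampus and 6 and 1 in the olfactory bulb. Over all genes tested, the shares higher and lower were 24.0% and 40.3% (cortex), 21% and 28.5% (hippocampus), and 24.8% and 31.4% (olfactory bulb). Kcnj10, the inward rectifier potassium channel Kir4.1 that shares the endfoot membrane with aquaporin-4, went from 1116 ± 137 (SD, n = 3) to 14776 ± 989 (SD, n = 4) in cortex. Its log2 rise was 3.73 there, 4.22 in hippocampus and 6.44 in the olfactory bulb (adjusted p = 2.9e-11, 1.64e-09 and 7.57e-09, limma), beside 2.42, 4.56 and 7.0 for Aqp4. Utrn, the gene of the dystrophin relative utrophin, rose by 0.65 ± 0.17 (SE), 1.10 ± 0.15 (SE) and 2.67 ± 0.20 (SE), beside the Dmd changes of 0.81, 1.07 and 2.58. Sntb1, a beta-syntrophin, rose in hippocampus (3.40) and olfactory bulb (4.65), with 0.68 in cortex (adjusted p = 0.141). Neuronal nitric oxide synthase, Nos1, fell in cortex, from 188 ± 48.8 (SD, n = 3) to 7.11 ± 7.85 (SD, n = 4).

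Laminin, nidogen, collagen and perlecan genes encode what dystroglycan meets in the basal lamina. By P14, 2 of 12 such genes had risen in cortex and 3 had fallen, against 1 and 4 in hippocampus and 9 and 0 in the olfactory bulb. The shares of all genes that rose and fell were 24.0% and 40.3%, 21% and 28.5%, and 24.8% and 31.4% in the same order of regions. Lama2, the laminin alpha2 chain, rose in the olfactory bulb (3.39 ± 0.21 (SE)) and cortex (1.52 ± 0.20 (SE)), and its hippocampal change was 0.37 (adjusted p = 0.0677). Nid1, a nidogen that joins laminin to collagen, rose in the olfactory bulb, from 61.6 ± 25.8 (SD, n = 3) to 838 ± 37.0 (SD, n = 3). Lamb1, the laminin beta1 chain, fell in cortex (log2 -1.99) and hippocampus (-1.65). Lama5 fell in the same regions (-1.19 and -2.09), and Lama1 in hippocampus (-2.84). Many of these genes are also made by vessel cells. The summed level of 9 endothelial markers in the olfactory bulb was 19.8 to 26.2 at P1 and 302 to 1526 at P14, with Ly6c1 at 0 at P1 and 7 of 7 tested markers higher. The 8 mural markers summed to 88.5 to 109 and 300.1 to 1348, with Acta2 at 0 at P14 and 4 of 5 tested higher. In cortex the endothelial sum was 31.8 to 518 at P1 and 86.8 to 871 at P14, and in hippocampus 47.9 to 122 and 8.96 to 136, with Cldn5, Ly6c1 and Tie1 at 0 at P14. The part of vessel cells and fibroblasts in the basal lamina values, and in those of Agrn and Dmd, was not tested.

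Lrp4, the receptor gene for agrin at synapses, rose while Agrn did not. It went from 479.9 ± 111 (SD, n = 3) to 2385 ± 112 (SD, n = 4) in cortex, a log2 rise of 2.34, with 2.12 in hippocampus and 0.98 in the olfactory bulb (adjusted p = 5.3e-09, 5.2e-07 and 0.00747, limma). Musk, the other receptor gene on that list, was too low to be tested. The sugar chains through which dystroglycan binds its ligands are built by a set of enzymes. In cortex 5 of 12 such genes were higher and 1 lower, against 3 and 2 in hippocampus and 2 and 1 in the olfactory bulb. Of all genes, 24.0% were higher and 40.3% lower in the first region, 21% and 28.5% in the second, and 24.8% and 31.4% in the last. B4gat1 rose in cortex (1.31) and hippocampus (0.91), and B3galnt2 fell in hippocampus (-2.55) and olfactory bulb (-1.75).

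Among 12 other channels, transporters and regulators of cell volume, 5 were higher and 4 lower in cortex (9 tested), 3 and 4 in hippocampus (8 tested), and 3 and 3 in the olfactory bulb (8 tested). These counts stand beside all-gene shares, higher and lower, of 24.0% and 40.3%, 21% and 28.5%, and 24.8% and 31.4% in the same regions. Gpr37l1, an astrocyte receptor reported to bind the MLC1 and GlialCAM complex, rose by 5.61, 7.48 and 6.88, beside 2.26, 3.23 and 3.99 for Mlc1. Cortical Gpr37l1 went from 42.4 ± 3.85 (SD, n = 3) to 2122 ± 159.6 (SD, n = 4). Slc12a4, a potassium chloride cotransporter, rose by 1.91, 1.95 and 3.34. Lrrc8b, a subunit of volume-regulated anion channels, fell in each region (log2 -1.45, -2.53 and -1.66). Aqp9, another aquaporin, rose in cortex from 4.04 ± 0.874 (SD, n = 3) to 35.1 ± 9.78 (SD, n = 4).

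Likeness of course was described by Pearson's r of log2 values over the 28 developmental libraries, taken within each region's table and averaged over the 3, among 10838 genes. The libraries of a table share region, scaling and age steps, so high values are common. Mlc1 and Hepacam had a mean r of 0.99 with each other. Aqp4 and Dag1 had 0.98, and Aqp4 and Dtna 0.85, with 0.57 in cortex. Agrn had negative values with all 6 rising members, from -0.67 with Hepacam to -0.49 with Aqp4, and Clcn2 had 0.24 or less with each member. In cortex alone Clcn2 had 0.60 with Dtna, 0.59 with Hepacam, 0.54 with Mlc1, 0.27 with Dmd, 0.14 with Dag1, 0.11 with Aqp4 and -0.67 with Agrn. With Hepacam and Mlc1 it had -0.14 and -0.08 in hippocampus and 0.09 and 0.0006 in the olfactory bulb. Genes most like Aqp4 were Trim9 (0.99), a ubiquitin ligase, the glutamine transporter Slc38a3, Tril, the malic enzyme Me1 and the urea transporter Slc14a1. The GABA transporter Slc6a11 led for Dag1 (0.99), followed by Il6st and Aqp4 itself. Ttyh1, an astrocyte membrane protein, led for both Mlc1 and Hepacam (0.99 each), followed by S1pr1 and Ntrk2 for Mlc1 and by Tspan7 and the glutamine synthetase gene Glul for Hepacam. Sash1, Nr3c1 and Slc1a3 were most like Dmd (0.97, 0.97 and 0.96), and Nacc2, Myo6 and Nwd1 most like Dtna (0.98, 0.97 and 0.97). For Agrn the highest were Pcsk5, a proprotein convertase, Tmem87b and Pcdhac2 (0.91, 0.91 and 0.90), and for Clcn2 Cuedc1 (0.66), Sec13 and Asb6 (0.62 each).

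At P28 the question was whether loss of Gabbr1 in cKO astrocytes goes with other levels of these genes. None of the 8 was called in cortex, where 0.00982% of all genes tested (Gabbr1 alone) were, nor in hippocampus or olfactory bulb, where 0.0% were. In those 2 regions the test did not call even Gabbr1 (adjusted p = 0.936 and 0.877, limma). A lack of calls there therefore cannot tell whether the members differ. At an unadjusted p under 0.05 there were 0 members in cortex, 1 in hippocampus (Agrn) and 0 in the olfactory bulb, beside 221 of 10188, 296 of 11639 and 349 of 11539 genes tested, and edgeR and DESeq2 also called 0 in each region. No gene of the 5 lists of partners, ligands, enzymes, volume regulators and receptors was called either.

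In cortex at P28, control libraries had Aqp4 at 6281, 5658, 6414 and 5723 and cKO libraries at 4696, 6362, 6088 and 5149. The groups overlapped. The log2 difference, cKO minus control, was -0.12 with a 95% interval of -0.50 to 0.26. Dag1 measured 701, 766, 1236 and 1250.1 in controls and 828, 970.3, 1409 and 1195 in cKO. For Dmd the controls had 1194, 1039, 1277 and 1444 and the cKO libraries 1027, 1432, 1227 and 1434. For Dtna the controls had 2859, 3023, 1923 and 1948 and the cKO libraries 3015, 2269, 3946 and 2046. All 3 overlapped between genotypes, with differences of 0.18 (-0.32 to 0.67), 0.04 (-0.34 to 0.43) and 0.19 (-0.30 to 0.69). Mlc1 and Hepacam differed by 0.02 (-0.47 to 0.50) and 0.11 (-0.24 to 0.47). No member's genotype groups stood apart in cortex, where those of 1.89% of all genes did. The intervals were widest for the low genes Clcn2 (-0.22, -1.34 to 0.91) and Agrn (-0.44, -1.36 to 0.48).

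The cortical libraries differ in what their labels state, and some members differed with it. The 5 libraries with no treatment stated had Agrn at 42.0 to 81.4 and the 3 with tamoxifen stated at 135 to 146, with no overlap. Clcn2 was 14.6 to 56.7 and 67.1 to 94.0. In the other direction, Mlc1 was 1572 to 1824 and 959 to 1221, and Dtna 2269 to 3946 and 1923 to 2046. The label styles did not overlap in these 4 of 8 genes, and in 16.6% of all genes tested. The Rn45s share differed with the labels too, at 33.4% to 35.8% and 27% to 28%, and its part in these values was not tested. The 3 libraries with tamoxifen stated also have higher library numbers than the other 5, so stated treatment and library series cannot be told apart. Hippocampal and olfactory bulb libraries numbered among those 5 do state tamoxifen, and whether the 5 had it is not known. Each style holds both genotypes, so the cKO minus control difference was also taken within each, where the tamoxifen style has 1 cKO library. Among libraries with no treatment stated it was -0.07 for Aqp4, 0.51 for Dag1, 0.13 for Dmd, 0.03 for Dtna, -0.09 for Mlc1, 0.17 for Hepacam, 0.04 for Clcn2 and -0.21 for Agrn. Among those with tamoxifen stated it was -0.23, -0.06, 0.08, 0.08, -0.27, -0.10, 0.26 and 0.08 in the same order. The signs differed between styles for Dag1, Hepacam and Agrn, and no within-style difference was called in the first style.

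**Figure D4:**
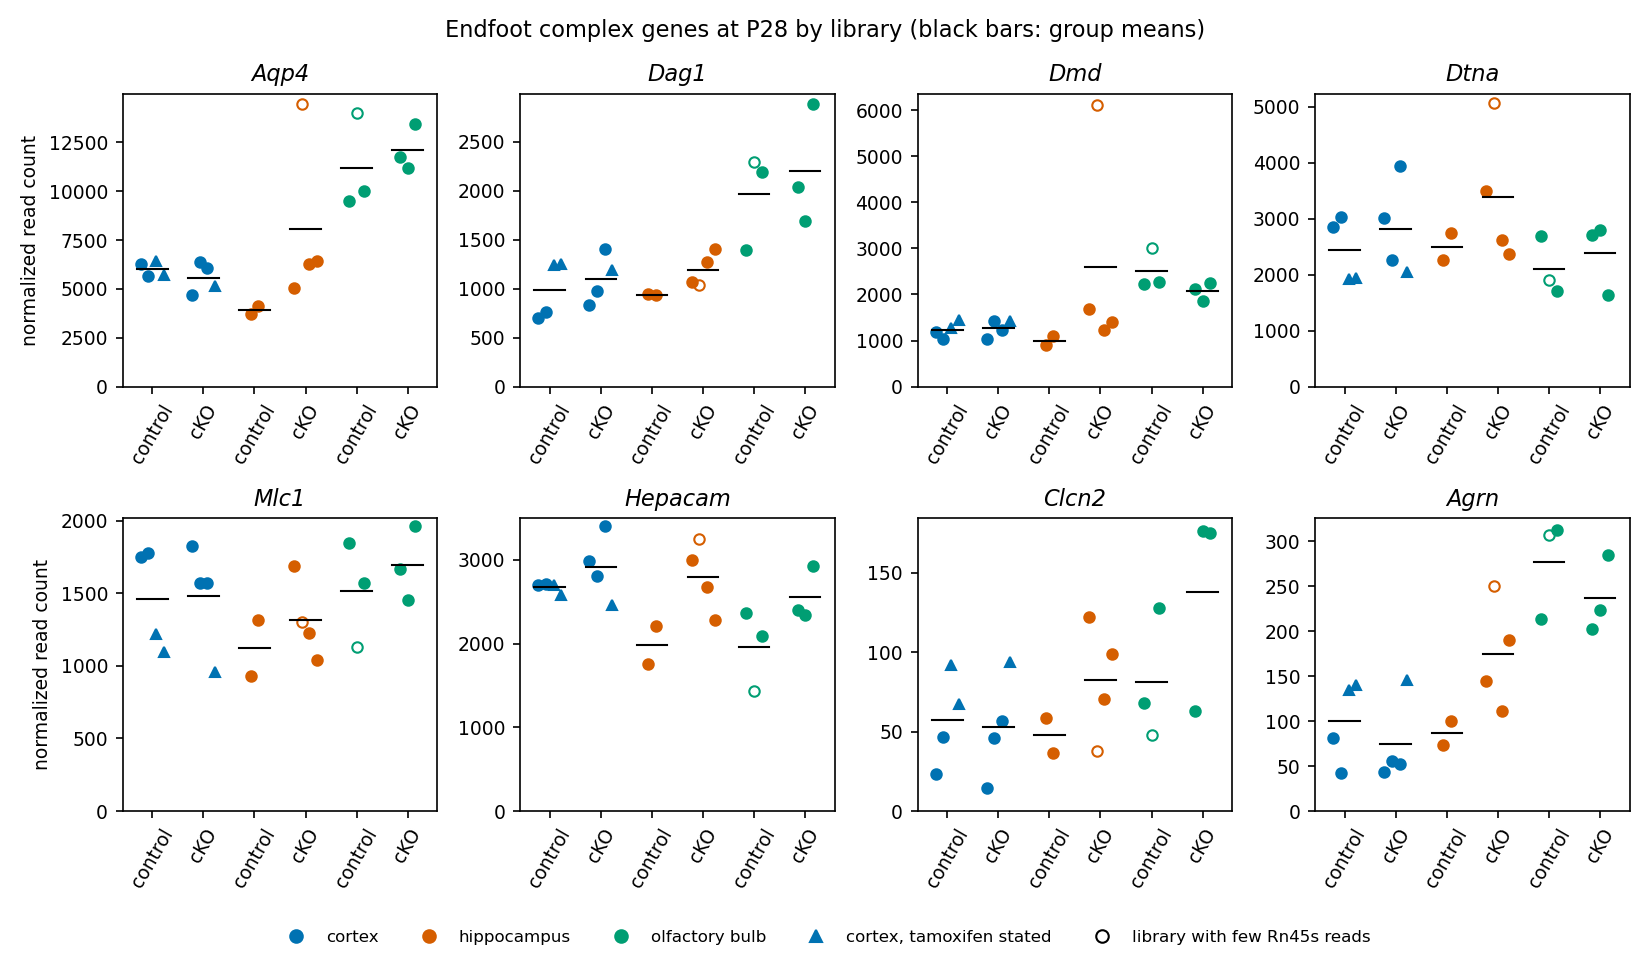
Normalized read count of the 8 genes in each P28 library, by region and genotype, with group means as black bars, triangles for cortical libraries whose labels state tamoxifen, and open circles for the 2 libraries of low Rn45s. Hippocampus cKO replicate 2 stands far above the other hippocampal libraries for Aqp4 (14462) and Dmd (6106), and cortical Agrn is higher in all 3 triangles than in the circles.

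In hippocampus all 8 differences were positive, yet none passed the test. Controls had Aqp4 at 3729 and 4149, and cKO libraries had 5066, 14462, 6276 and 6416. The lowest cKO library lay above both controls, and replicate 2, the library with 0.594% Rn45s, lay far above the rest. For Dmd the values were 895 and 1096 in controls and 1683, 6106, 1230.4 and 1410.0 in cKO, with the same library highest. Hepacam was at 1752 and 2209.9 in controls and 2998, 3247, 2676 and 2284 in cKO. Agrn was at 73.5 and 99.6 in controls and 144, 249.9, 112 and 190.2 in cKO. Dag1 was at 945 and 933 in controls and 1063, 1037, 1270.3 and 1407 in cKO. In these 5 of 8 genes every cKO library lay above both controls, as it did in 7.08% of all genes tested.

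The log2 differences in hippocampus were 0.91 for Aqp4 (-0.07 to 1.88), 1.05 for Dmd (-0.24 to 2.34), 0.95 for Agrn (0.05 to 1.85, unadjusted p = 0.0402), 0.50 for Hepacam (-0.13 to 1.13) and 0.34 for Dag1 (-0.24 to 0.91). In the remaining 3 genes the groups overlapped. Clcn2 was at 58.7 and 36.5 in controls and 122, 37.6, 70.3 and 98.6 in cKO, a difference of 0.69 (-0.53 to 1.91). Dtna and Mlc1 differed by 0.38 (-0.42 to 1.18) and 0.23 (-0.43 to 0.89). Adjusted p-values ran from 0.936 to 0.937 (limma). Without cKO replicate 2 the difference for Dmd was 0.53, for Aqp4 0.58, for Agrn 0.76, for Hepacam 0.42, for Dag1 0.40, for Clcn2 1.02, for Dtna 0.16 and for Mlc1 0.23. With Clcn2 added, 6 of 8 genes then lay above both controls in every cKO library, as did 11% of all genes. Beside these values, the 12 astrocyte markers summed to 171436 to 192635 in controls and 131442 to 385631 in cKO, overlapping. The 8 mural markers summed to 145 to 203 in controls, with Kcnj8 at 0, and 286 to 411 in cKO, without overlap. The 9 endothelial markers summed to 486 to 499 in controls, with Tie1 at 0, and 335 to 743 in cKO, overlapping. The 8 microglia markers summed to 127 to 161 in controls and 176 to 801 in cKO, without overlap. The 8 mature oligodendrocyte markers summed to 4127 to 6638 and 5094 to 17622 in the same order, overlapping. The part of these markers in the differences was not tested.

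In olfactory bulb all 8 genes overlapped between genotypes, and 10% of all genes tested did not. Aqp4 measured 9505, 13982 and 10014 in controls and 11732, 11199.5 and 13461 in cKO, with a difference of 0.14 (-0.38 to 0.65). Dmd measured 2226, 3013 and 2271 in controls and 2122, 1867 and 2259 in cKO, with -0.26 (-0.72 to 0.21). For Hepacam the values were 2361, 1429.8 and 2088 in controls and 2396, 2338 and 2925 in cKO, with 0.41 (-0.12 to 0.93). Control replicate 2, the library with 0.476% Rn45s, was the highest control for Aqp4, Dmd and Dag1 and the lowest for Mlc1, Hepacam and Clcn2. Without it the differences were 0.31 for Aqp4, -0.11 for Dmd, 0.19 for Hepacam, -0.0185 for Mlc1 in place of 0.18, and 0.42 for Clcn2 in place of 0.73. The other differences with all libraries were 0.16 for Dag1 (-0.43 to 0.76), 0.17 for Dtna (-0.43 to 0.76) and -0.22 for Agrn (-0.82 to 0.38), and without that library 0.29, 0.11 and -0.14.

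**Figure D5:**
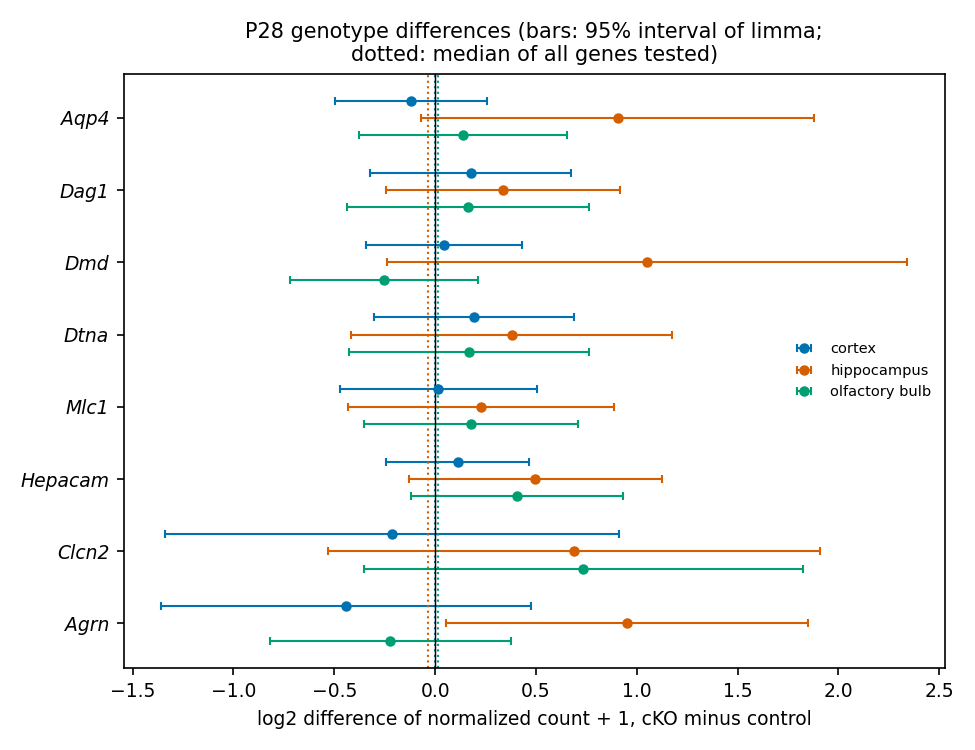
Log2 difference of normalized count + 1, cKO minus control, for each gene and region at P28, with 95% limma intervals as bars and the median of all genes tested as dotted lines. Every interval spans 0 except that of Agrn in hippocampus (0.05 to 1.85), which does not pass after adjustment (adjusted p = 0.936).

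Whether the P28 differences of hippocampus differ from those of the other regions was not tested, since each region was normalized in its own table. Levels per kilobase at P28 kept Aqp4 first in all 6 groups, with 966 ± 61.6 in cortex controls, 632 ± 47.6 in hippocampus controls and 1792 ± 393 in the olfactory bulb controls. Hepacam and then Mlc1 followed in each of them. Aqp4 and Hepacam overlapped in cortex cKO and in both hippocampal groups. Agrn, with 10.7 ± 5.03 in cortex controls and 29.9 ± 5.96 in the olfactory bulb controls, and Clcn2 were the lowest of the 8 in every group.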

How the data were processed

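Bulk RNA-seq libraries were made with a Trio RNA-seq kit from small amounts of total RNA, per the labels' protocols. The authors deposited 6 tables of normalized signal, which are read counts divided by 1 factor per library; STAR 2.5.0a, DESeq2 1.20.0, FastQC, MultiQC and mm10 are named in the submitters' processing notes. The counting program, annotation and strand setting are not given in the sources used here. Whole reads were recovered by dividing each library by its lowest value above 0, taken as 1 read. In each library 100.0% of values came out whole within 0.01 reads, with a wider allowance for high counts. In olfactory bulb P28 cKO replicate 2, where 1 read is worth nearly 1, this is a weak check. Symbols turned into dates, 27 in each of 5 tables, were restored from the row order of the P28 cortex table.

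Values were tested as log2(value + 1) with limma 3.58.1 (R 4.3.3, mean-variance trend) in each table, for genes with a mean of at least 10, with Benjamini-Hochberg adjustment over all genes tested, between 10188 and 11822 per table, and a threshold of 0.05. The 3 ages of a region shared 1 fit. Alternatives were other pseudocounts, filters and scalings, a Ddx3y or label-style covariate, left-out libraries, and edgeR 4.0.16 and DESeq2 1.42.0 on recovered reads, where edgeR called 7408, 5469 and 6399 genes from P1 to P14 in cortex, hippocampus and olfactory bulb. Only the limma fit was tried on simulated data, for P14 against P1 and for the P28 genotypes in cortex. Its outcome is not reported here, and hippocampus and olfactory bulb were not simulated. All 8 members were named whatever their result. From each list of related genes, at most 2 called genes per region were named, by largest change from P1 to P14, and Kcnj10 and Utrn always; results for some genes of these lists are not reported here. The members and lists were chosen with earlier results of these data known. Gene positions are GENCODE's on GRCm38, 1-based. Proteins were not analysed here.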

Additional observations from a re-analysis of the deposited data

Results flagged for a closer look

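For each of the 8 genes in the 4 groups of 4 libraries, the library at either end was compared with the others, which makes 32 checks, and chance marks about 1 in 20. In 5 cases 1 library stood apart. The lowest cortex P14 library for Dmd was replicate 4, with 1242. For Hepacam, the lowest cortex P28 control was replicate 4, with 2583. For Agrn, the highest cortex P28 cKO library was replicate 4, with 146, and it is the cKO library whose label states tamoxifen. In hippocampus P28 cKO, replicate 2 was highest for Aqp4, with 14462, and for Dmd, with 6106, and it is the library with 0.594% Rn45s. The part of the Rn45s share in these 2 values was not tested.

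From P7 to P14, the sign of the log2 change of Aqp4 differed among regions. Its log2 change was 3.52 in the olfactory bulb and 1.01 in hippocampus, where each P14 library lay above each P7 library. In cortex it was -0.23, with each P14 library below each P7 library, but this did not pass (adjusted p = 0.148, limma) and lay near the median of all genes in that step, -0.19. Under quantile normalization the hippocampal change was -0.0833. The difference between regions was not tested, since the regions were normalized in separate tables.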

How the results depend on the processing

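Of the 54 developmental changes called, 45 were called in the same direction under every alternative tried, 7 lost the call in at least 1 and 3 turned in at least 1, with Dag1 in hippocampus from P7 to P14 among both. The count of members called moved by more than 1.5 times in 2 comparisons. From P7 to P14 in hippocampus it was 6 as reported and 3 under quantile normalization. From P1 to P7 in the olfactory bulb it ran from 3 to 6 when libraries were left out, with 3 without P1 replicate 1 and 3 without P7 replicate 2. At P28, 0 members were called under every alternative, though in the reported fits Gabbr1 itself was called in cortex alone. No paired analysis was possible because the labels give no replicate numbers that groups share.

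Some small or low values changed sign. Dag1 in cortex from P7 to P14 was 0.0663 under TMM, 0.0172 in edgeR and 0.0423 in DESeq2. Quantile normalization gave -0.0639 for Dmd in that comparison. In hippocampus from P7 to P14 it gave -0.0833 for Aqp4, -0.0658 for Dag1, -0.0899 for Dmd, -0.0982 for Dtna and 0.11 for Clcn2, and from P1 to P14 0.18 for Clcn2. Agrn in the olfactory bulb from P1 to P7 was -0.0403 under TMM. With label style as a covariate, the cortex P28 differences of Mlc1 and Clcn2 were -0.15 and 0.11, and within the 5 libraries with no treatment stated, an alternative chosen after seeing the data, -0.0924 and 0.0364. The cause of these turns was not tested.

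Leaving out 1 library at a time gave ranges that span 0 for Dtna in cortex from P1 to P7 (-0.0838 to 0.24), for Clcn2 in hippocampus from P1 to P7 (-0.0725 to 0.29) and to P14 (-0.25 to 0.11), for Agrn from P1 to P7 (-0.0662 to 0.0929) and Clcn2 from P1 to P14 (-0.0556 to 0.59) in the olfactory bulb, and at P28 for Dmd (-0.0367 to 0.15), Mlc1 (-0.11 to 0.21) and Clcn2 (-0.58 to 0.29) in cortex, Mlc1 in hippocampus (-0.0227 to 0.48), and Dag1 (-0.0631 to 0.34) and Mlc1 (-0.0185 to 0.34) in the olfactory bulb. None of these 11 results was called.

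Over all genes tested, DESeq2 called 2260 genes from P1 to P7 in the olfactory bulb against 1214 in limma, and at P28 1 in hippocampus and 22 in the olfactory bulb against 0 and 0. With a mean of at least 100, which tests fewer genes, limma called 3295 in place of 5893 from P7 to P14 and 3986 in place of 7608 from P1 to P14 in cortex, 2067 in place of 3489 and 3256 in place of 5732 in hippocampus, and 3007 in place of 5396 and 3413 in place of 6449 in the olfactory bulb. With the 2 ages fitted alone, it called 4326 in place of 2092 from P1 to P7 in hippocampus and 3514 in place of 1214 in the olfactory bulb. Leaving out 1 library took the 2092 to as few as 1359 (without P1 replicate 3), the 1214 to 520 (without P7 replicate 2) and the hippocampal 3489 to 2007 (without P7 replicate 2). At P28 it called 3 in place of 1 among the 5 cortical libraries with no treatment stated, and 1 in place of 0 in hippocampus without cKO replicate 2 or with Ddx3y as a covariate, and in the olfactory bulb without control replicate 3. At an unadjusted p under 0.05, limma gave 296 and 349 genes in those P28 comparisons. Leaving out 1 library gave from 75 (control replicate 1) to 669 (cKO replicate 2) in hippocampus and from 114 (cKO replicate 1) to 1119 (control replicate 3) in the olfactory bulb, and in cortex from 162 to 386 beside 221. The hippocampal P28 comparison rests on 2 controls, and values of Clcn2 and, at P28, Agrn rest on few reads.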
